A study of Mus musculus with 21 samples.

Results

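Adult mouse sciatic nerve that lacked Pmp22 was compared with nerve that carried a Pmp22 transgene, both at postnatal day 60 (P60). The comparison used 4 of the 21 arrays of the series, chosen by their titles: 2 arrays from mice homozygous for a Pmp22 null allele and 2 from mice with the transgene. Each array measured RNA from the pooled nerves of 4 to 7 mice on an Affymetrix mouse expression array. Beside them stand 3 P60 wild-type (WT) arrays, from mice labelled as of mixed background, 2 P60 arrays from mice with the Trembler mutation of Pmp22, and 3 null and 3 transgenic arrays at postnatal day 4 (P4). The labels give the source publications of both mutants but not the promoter, copy number or site of the transgene, nor the strain of either mutant. Which animals were littermates is not given either. The p-values rest on differences between these pools, which may be partly technical.

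PMP22 is a tetraspan membrane glycoprotein that myelinating Schwann cells place in compact peripheral myelin, the lipid-rich sheath that insulates axons. In humans, a duplication of the PMP22 gene underlies Charcot-Marie-Tooth disease type 1A, and loss of a gene copy underlies hereditary neuropathy with liability to pressure palsies. Null and transgenic mice are therefore opposite ends of a gene dosage series, and both develop demyelinating disease of peripheral nerve. Building myelin takes large amounts of cholesterol and long-chain fatty acids, which Schwann cells synthesise themselves to a large extent.

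Values are the model-based expression index of dChip, an intensity on a linear scale. Log2 was taken after values below the floor of 54.7, the 20th percentile of the table, had been raised to it. Of 12422 probe sets, 10994 lay above the floor on at least 2 of the 21 arrays and were tested. A probe set was called when the limma fit gave an adjusted p under 0.05. Differences are null minus transgenic on the log2 scale, with the SE of that fit, and adjusted p values are Benjamini-Hochberg values over all probe sets tested. Where both arrays of a group lay at or below the floor, the difference is a lower limit of its size and is written as "at least". A group wholly at the floor, at either age, adds no spread to the fit, so the SE and p-values of such probe sets can be too small. In pooled tissue, fewer cells of a type and less RNA per cell cannot be told apart.

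The null arrays differed from each other more than the transgenic arrays did. Across tested probe sets, Pearson's r was 0.935 between both null arrays and 0.969 between both transgenic arrays. Null array 1 correlated with transgenic arrays 1 and 2 at 0.945 and 0.949, and null array 2 at 0.87 and 0.889. Null array 1 was thus nearer to the transgenic arrays than to null array 2 on this measure. The null arrays lay more than 1 log2 unit apart for 8.37% of tested probe sets, and the transgenic arrays for 2.67%. In null array 2, 167 values lay at or below 0, against 68 to 78 in the other 3 arrays. Both null arrays were scanned on 1 day and both transgenic arrays on another, so scan day and genotype cannot be told apart as fixed terms.

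Pmp22 itself was lower in the null. On its bright probe set, 102395_at, the index was 5679.8 and 4797 in null arrays 1 and 2 and 7388 and 8553 in transgenic arrays 1 and 2. The WT arrays read 7162, 6732 and 6791, below both transgenic and above both null arrays. The log2 difference was -0.61 ± 0.13 (adjusted p = 0.0116, limma), and without null array 2 it was -0.48 (adjusted p = 0.16). The dim probe set 161442_at read 47.4 and 71.4 in the null and 119 and 97.8 in the transgenic arrays, a difference of -0.79 ± 0.25 that did not pass (adjusted p = 0.0662). A signal far above the floor thus remained in nerve labelled as null. Where these probes lie relative to the deleted part and to the transgene is not given in the sources used here, so they do not check the labels.

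Peripheral nerve markers were present in both groups. Mbp, a major protein of compact myelin, read 3563 and 3619.9 in the null arrays and 4854 and 5151 in the transgenic arrays on probe set 96311_at (log2 difference -0.48 ± 0.14, adjusted p = 0.0514). S100b, a Schwann cell calcium-binding protein, lay between 1620.4 and 2592 on the 4 arrays, and Egr2, the transcription factor that drives myelination, between 3686 and 6414. Sox10, the lineage factor of Schwann cells, lay between 1171 and 1828 on probe set 102856_at. None of these 3 was called. A second, dim Mbp probe set, 96310_at, read 69 and 65.5 against 153 and 183, with WT between 69.2 and 94.1, and was called with any 1 of the 4 arrays left out (-1.31 ± 0.20, adjusted p = 0.00142). Cnp was below the floor on all 4 arrays.

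In all, 192 probe sets were called higher in the null (1.75% of those tested) and 542 lower (4.93%). An unadjusted p under 0.05 was found for 2544. In each of the 734 called probe sets both null arrays lay on the same side of both transgenic arrays, which also held for 48.1% of all tested probe sets. Null array 2 set the size of many of the lower calls: it lay farther than null array 1 from the transgenic mean in 470 of 542, or 86.7%, against 64.5% of all tested probe sets. The median distance from the transgenic mean among lower calls was -0.9 in null array 1 and -1.7 in null array 2, and among higher calls 0.88 and 1.1. Without null array 2, 41 probe sets were called higher and 46 lower, and 73 of the 734 were among them. Without null array 1, 480 were called higher and 1188 lower, and 660 of the 734 were among them. Leaving out transgenic array 1 gave 77 and 150 calls, and leaving out transgenic array 2 gave 62 and 164. Quantile scaling of the arrays moved the split to 336 higher and 511 lower, and the lower share of calls from 73.8% to 60.3%, while median scaling gave 350 and 454, with 56.5% lower.

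**Figure D1:**
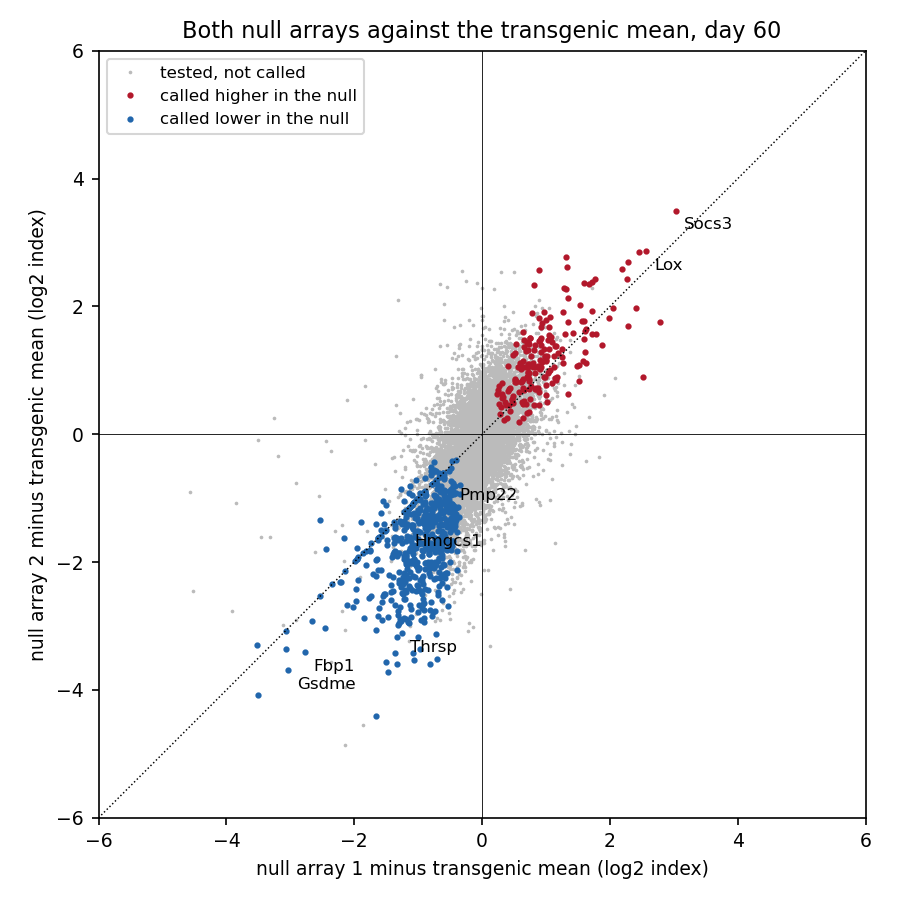
Null array 1 minus the transgenic mean (x axis) against null array 2 minus the transgenic mean (y axis), both in log2 index units, for every tested probe set at P60. Blue points are the 542 lower calls, which lie mostly below the dotted line of equal distance, and red points are the 192 higher calls.

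A core of 58 probe sets was called with each of the 4 arrays left out in turn, 19 higher and 39 lower in the null. Socs3, Lox, Syt4, Slc22a2, Slc39a8, Serpind1 and Apobec1 were among the higher ones, and Gsdme, Mapt, Fbp1, Tap2 and Gbp2 among the lower ones. For Slc22a2, Slc39a8 and Tap2 both arrays of a group lay below the floor, so leaving out either of these could not change the difference. The WT mean lay between the group means for 126 of the 192 higher calls (65.6%) and 382 of the 542 lower calls (70.5%), against 34.8% of all tested probe sets. A wide difference between the groups leaves more room for a value in between, and this was not corrected for. The null mean was farther than the transgenic mean from WT for 398 lower calls (73.4%) and 104 higher calls (54.2%), against 60.2% of all tested probe sets.

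The most positive difference belonged to Socs3, which encodes the feedback inhibitor of cytokine receptors of the interleukin-6 family. Probe set 162206_f_at read 700.1 and 971 in the null arrays and 109 and 67.7 in the transgenic arrays. The 3 WT arrays, at 150.2, 173 and 155, lay near the transgenic ones, so the null arrays stood above both groups. The Trembler arrays read 235 and 217. The difference was 3.26 ± 0.27 (adjusted p = 2.78e-06, limma), and it was called without any 1 of the 4 arrays. A second Socs3 probe set, 92232_at, read 565 and 789 in the null and 488 and 447 in the transgenic arrays, with a difference of 0.52 ± 0.24 that did not pass (adjusted p = 0.205). The probe sets thus differ in size, and the suffix of 162206_f_at marks a set that can take signal from related transcripts. Osmr, the receptor subunit for oncostatin M, a member of the same cytokine family, read 805 and 1277 in the null and 309.9 and 182 in the transgenic arrays (2.09 ± 0.34, adjusted p = 0.00235). Its WT arrays, at 374, 480.3 and 357, lay between the groups. Ccl2, a chemokine that draws monocytes, read 332 and 296 against 116 and 60.5 (1.90 ± 0.42, adjusted p = 0.0118). Ccl9, another chemokine, read 923 and 450 against 326 and 50.7 (2.27 ± 0.54, adjusted p = 0.0194). The transgenic arrays of both chemokines were far apart, and without null array 2 neither passed (adjusted p = 0.102 and 0.0639).

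The promoter of Socs3 is shown because Socs3 is a known target of STAT transcription factors. It holds the STAT-type motif TTCNNNGAA, searched on both strands and set in capitals, which 8.3% of all 32851 RefSeq promoters of this length hold. The sequence runs from 250 bases before to 50 after the start at chr11:117969317-117969616, minus strand, GRCm38.p6, from RefSeq.
Socs3: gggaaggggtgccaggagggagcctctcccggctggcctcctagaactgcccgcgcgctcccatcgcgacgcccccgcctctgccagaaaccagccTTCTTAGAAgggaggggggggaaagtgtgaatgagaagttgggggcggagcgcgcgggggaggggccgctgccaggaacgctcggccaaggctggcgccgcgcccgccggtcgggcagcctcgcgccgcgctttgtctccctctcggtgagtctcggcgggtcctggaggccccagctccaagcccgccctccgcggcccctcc

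For several genes called higher in the null, the transgenic arrays lay farther than the null arrays from WT. In each gene given here the null arrays also lay outside the WT range. Lox encodes lysyl oxidase, which cross-links collagen and elastin. Its probe set 160095_at read 1479 and 1813 in the null, 445 and 139.6 in the transgenic and 2446, 2358 and 2215 in the WT arrays. Both transgenic arrays lay below the null and WT arrays, the Trembler arrays were also low, at 536 and 199, and the difference was 2.72 ± 0.44 (adjusted p = 0.00245). A second Lox probe set, 161177_f_at, gave 2.49 ± 0.45 (adjusted p = 0.00468). Slc22a2, an organic cation transporter, read 188 and 163 in the null, 31.7 and 34.3 in the transgenic and 261 to 397 in the WT arrays. Because both transgenic values lay below the floor, its difference was at least 1.68 ± 0.15 (adjusted p = 5.55e-06). Serpind1, the thrombin inhibitor heparin cofactor II, read 461 and 534 against 147 and 133, with WT between 1429 and 2160.1. Its difference was 1.83 ± 0.29 (adjusted p = 0.00215), with both mutants below WT. Fgl2, a secreted fibrinogen-like protein of immune cells, read 2729 and 3599 against 1028 and 352, with WT between 2009 and 2376 (2.38 ± 0.42, adjusted p = 0.0039). The Trembler arrays were below WT too, at 37.5 and 29.6 for Slc22a2, 122 and 139.7 for Serpind1 and 882 and 971 for Fgl2.

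Other genes were high in the null against both transgenic and WT nerve. Apobec1, which encodes a cytidine deaminase that edits RNA, read 1241 and 1125 in the null, 376 and 379 in the transgenic and 401, 349 and 371 in the WT arrays. The transgenic and WT ranges overlapped, and the null arrays exceeded both (1.65 ± 0.25, adjusted p = 0.00159). Syt4, a synaptotagmin of secretory vesicles, read 180.4 and 290.4 in the null and 59.1 and 34.7 in the transgenic arrays, with all WT arrays below the floor (2.01 ± 0.16, adjusted p = 2.78e-06). Slc39a8, a zinc importer, read 266 and 177 in the null and 37.5 and 46.5 in the transgenic arrays, a difference of at least 1.99 ± 0.21 (adjusted p = 4.46e-05). Sqstm1, the autophagy receptor p62, read 1924 and 2504 against 1168 and 1242 (0.87 ± 0.16, adjusted p = 0.00509), with WT between 1368 and 1582. All 4 genes had their WT arrays outside the null range. The Trembler arrays lay above WT for 3 of them, at 960.2 and 829 for Apobec1, 141 and 107 for Syt4 and 1628 and 1699 for Sqstm1, and read 87 and 45.5 for Slc39a8. Arhgef3, a guanine nucleotide exchange factor, read 516 and 821 against 209 and 118 (2.05 ± 0.43, adjusted p = 0.00957), with WT between the groups at 249 to 394.

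**Figure D2:**
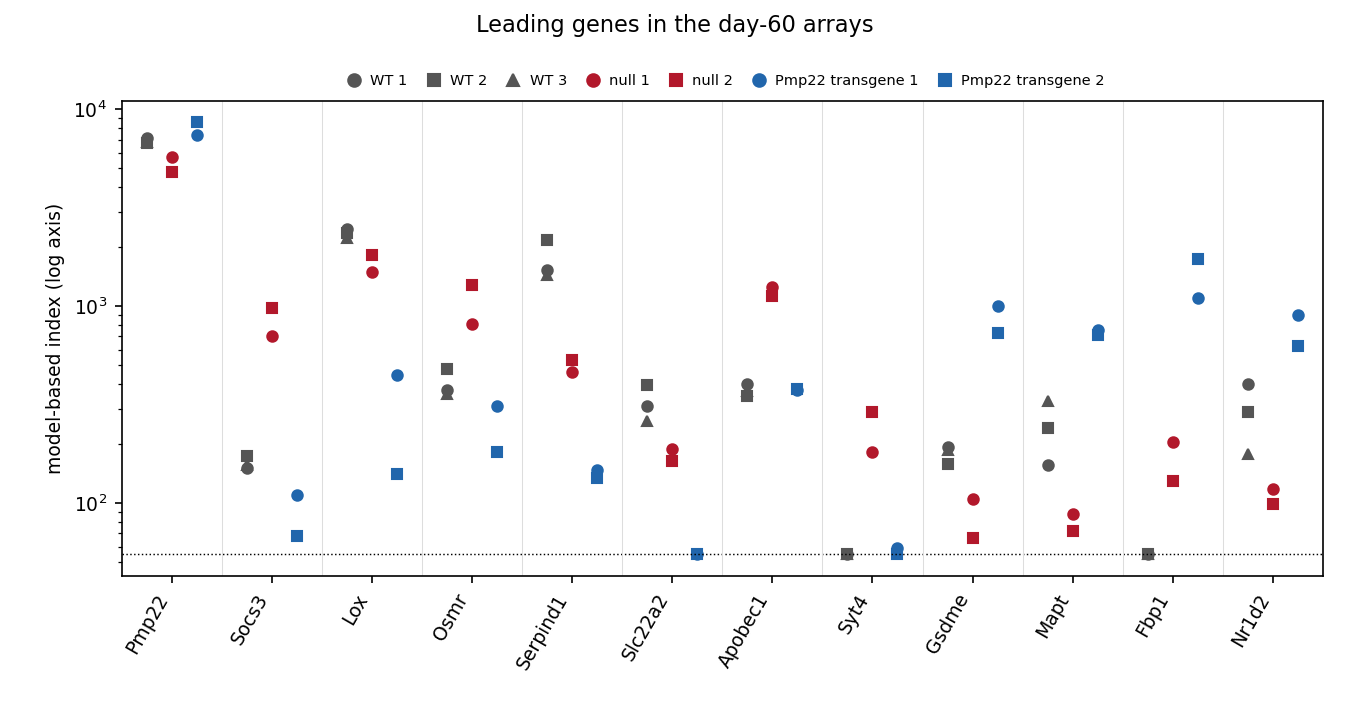
Model-based index (log axis) of 12 genes on the P60 arrays: WT (grey), null (red) and transgenic (blue), 1 point per array. Values under the dotted floor of 54.7 are drawn on it. Socs3 and Apobec1 are higher in the null than in both groups drawn beside it, Lox is low in the transgenic arrays, and Gsdme and Fbp1 are high in the transgenic arrays.

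Among the largest negative differences, most genes were at their highest in the transgenic nerve. Gsdme encodes gasdermin E, which forms membrane pores after caspase cleavage. It read 104 and 65.9 in the null, 994 and 725 in the transgenic and 191, 158 and 186 in the WT arrays. The 3 groups did not overlap, with WT nearer to the null (-3.36 ± 0.41, adjusted p = 0.000167). The Trembler arrays, at 339 and 235, also exceeded WT. A second Gsdme probe set close to the floor had -0.05 (adjusted p = 0.748). Fbp1, an enzyme of gluconeogenesis, read 203 and 129.6 in the null and 1094 and 1741 in the transgenic arrays (-3.09 ± 0.24, adjusted p = 2.78e-06). Its WT arrays read 18.7, 8.57 and 37.8, all below the floor, so that null and transgenic arrays lay above WT. Both Trembler arrays read 37.3. Mapt encodes tau, an axonal microtubule protein, and 3 of its probe sets were called. Probe set 102742_g_at read 87.8 and 71.6 against 758 and 709 (-3.21 ± 0.44, adjusted p = 0.00068), and 102743_at read 296 and 352 against 898 and 973 (-1.53 ± 0.27, adjusted p = 0.00364). Both transgenic arrays exceeded all WT arrays on both probe sets. So did both Trembler arrays, at 575 and 517 on 102742_g_at and 816 and 971 on 102743_at.

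Kit, the stem cell factor receptor, read 112 and 115 in the null, 421 and 335 in the transgenic and 91.2 to 128 in the WT arrays (-1.72 ± 0.40, adjusted p = 0.0163). The null and WT ranges overlapped and the transgenic arrays lay above both. The Trembler arrays, at 259 and 289, also exceeded WT. Stk39, a kinase that regulates cation-chloride cotransporters, read 74.9 and 48.8 against 277 and 312 (-2.20 ± 0.39, adjusted p = 0.00375), with WT between 64 and 125. Erbb3, the neuregulin receptor of Schwann cells, read 2063 and 1323 against 3404 and 3733, with WT between 1305 and 1758 (-1.11 ± 0.27, adjusted p = 0.0219). Here too the WT arrays lay nearer to the null, and the Trembler arrays, at 3337 and 2416, exceeded WT. Nr1d2, a nuclear receptor of the circadian clock, read 118 and 98.7 against 896 and 627 (-2.80 ± 0.51, adjusted p = 0.00473). Its WT arrays, at 402, 288 and 178, lay between the groups. The Trembler arrays read 135 and 66.2 for Stk39 and 250.2 and 514 for Nr1d2, overlapping the WT range in both. Without null array 2, adjusted p was 0.144 for Kit, 0.0723 for Stk39, 0.35 for Erbb3 and 0.0727 for Nr1d2.

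Probe set 101741_at, annotated to the microRNA gene Mir686, had the most negative difference of the named probe sets (-3.80 ± 0.42, adjusted p = 7.07e-05). Its index was 117 and 78.7 in the null, 1513 and 1178 in the transgenic and 919, 1095 and 1605 in the WT arrays, so the null stood apart. An array of this kind does not measure a mature microRNA, and which transcript this probe set measures is uncertain. Probe set 97197_r_at, annotated to AI506816, lay below the floor in both null arrays, at 13 and 25.4, and read 576 and 369 in the transgenic and 198 to 285 in the WT arrays. Its difference was at least -3.08 ± 0.31 in size (adjusted p = 1.92e-05), and a second, dim probe set of AI506816 was not tested. Snhg6, a small nucleolar RNA host gene, read 58.1 and 45.1 in the null and 259 and 282 in the transgenic arrays on probe set 96156_at (-2.26 ± 0.42, adjusted p = 0.00509). A second Snhg6 probe set, 161635_f_at, lay below the floor on all 4 arrays. The uncharacterised 6330403K07Rik read 58.6 and 48.1 in the null and 266 and 276 in the transgenic arrays (-2.26 ± 0.27, adjusted p = 0.000167, limma). Rnase4, a secreted ribonuclease, read 81.4 and 28.7 against 1139 and 176 (-2.75 ± 0.68, adjusted p = 0.0228, limma), so its transgenic arrays were far apart. Mtch2, a mitochondrial outer membrane protein, read 513 and 108 against 1537 and 1311 (-2.59 ± 0.48, adjusted p = 0.00499, limma), so its null arrays were far apart. Without null array 2 the difference was -2.46 for Rnase4 and -1.47 for Mtch2, and neither passed.

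The gene lists that follow use the brightest probe set of each gene. On that basis 1.54% of 7703 genes were called higher in the null and 5.28% lower, with a median difference of -0.052.

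Of 17 tested genes of cholesterol biosynthesis, 0 were called higher and 4 lower in the null: Hmgcs1, Idi1, Nsdhl and Fdps. Both null arrays lay below both transgenic arrays for 10 of the 17, against 29.8% of all genes, and for 0 did they lie above, against 19.4%. The median difference was -0.40, with -0.23 in null array 1 and -0.47 in null array 2. Both mutants were low against WT: for 14 of the 17 genes all 3 WT arrays exceeded all 4 mutant arrays, against 11.3% of all genes. The summed index of the list was 5131 and 4782 in the null, 6979 and 8114 in the transgenic and 15725 to 17667 in the WT arrays. Hmgcs1, the synthase at the head of the mevalonate pathway, read 652 and 544 in the null and 1239 and 1779 in the transgenic arrays, with WT at 2486, 2134 and 2389 (-1.32 ± 0.31, adjusted p = 0.0181). Idi1, the isomerase that makes the allylic isoprenoid building block, read 375 and 372 against 582 and 833, with WT between 2382 and 2574 (-0.90 ± 0.22, adjusted p = 0.0207). The groups thus stood in the order null, transgenic, WT for both enzymes. Nsdhl, a sterol dehydrogenase of the later steps, read 66.7 and 47.2 against 158 and 182 (-1.49 ± 0.31, adjusted p = 0.00993). Fdps, which makes farnesyl diphosphate, read 226 and 28.3 against 556 and 612, so that its null arrays were far apart (-2.39 ± 0.60, adjusted p = 0.0256). Sqle, Msmo1, Cyp51 and Lss, enzymes of the squalene and sterol steps, had differences of -0.47, -0.46, -0.63 and -0.27 that did not pass. Without null array 2 the list had 0 lower calls.

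**Figure D3:**
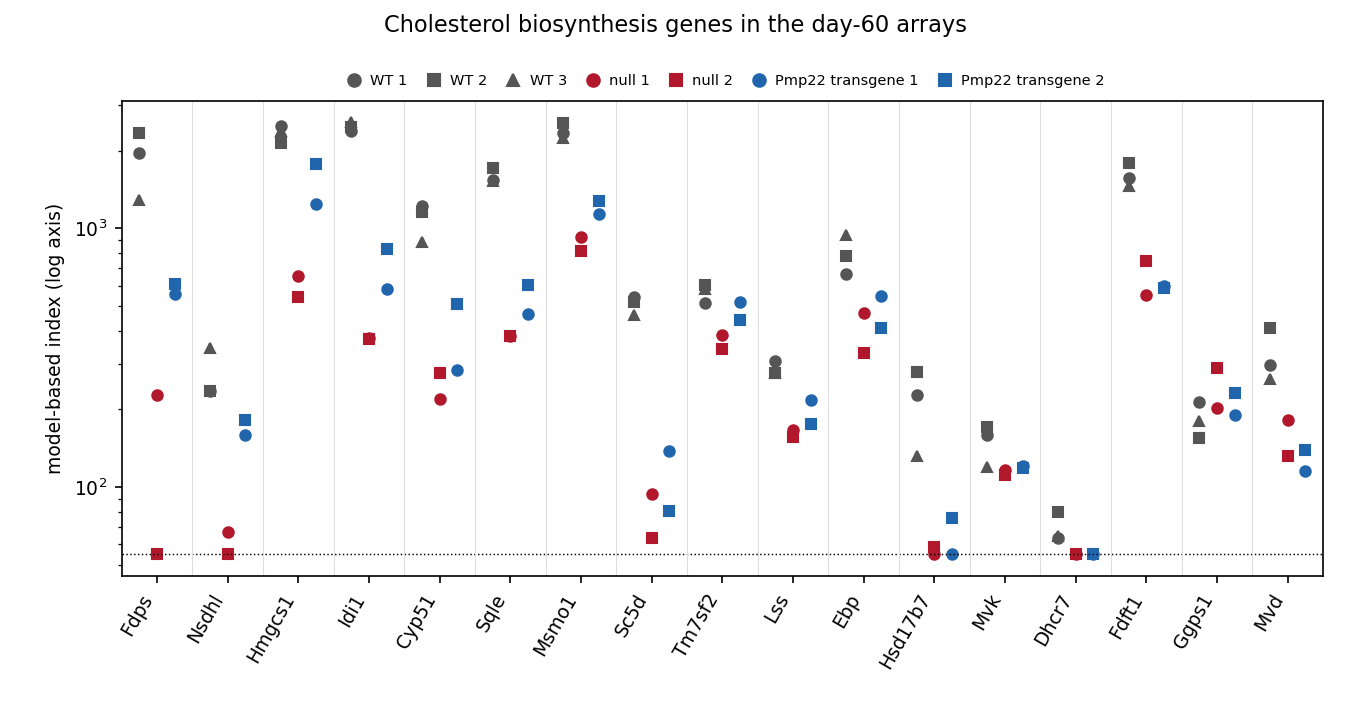
Model-based index (log axis) of the 17 tested cholesterol biosynthesis genes on the P60 arrays, 1 point per array, ordered by the null minus transgenic difference. For 14 genes the grey WT points all lie above the red null and blue transgenic points. Values under the dotted floor of 54.7 are drawn on it.

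The promoters of 3 of the called sterol genes are shown because these genes moved together and sterol gene promoters are known to combine a sterol regulatory element with CCAAT boxes, which NF-Y binds. Capitals mark matches to the sterol-type motif TCACNCNAC and to the CCAAT box in its reverse form ATTGG, both searched on both strands. Of all 32851 promoters, 2.7% hold the first and 37.4% the second. Promoters were found for 14 of the 17 tested cholesterol genes, and 14 of these 14 hold ATTGG, against 41.1% of all 27025 genes with a promoter, while 2 hold TCACNCNAC. A match is a description of these letters only. The windows are chr13:119690101-119690400 for Hmgcs1, chr13:8885356-8885655 for Idi1 and chrX:72918271-72918570 for Nsdhl, all on the plus strand of GRCm38.p6, from RefSeq.
Hmgcs1: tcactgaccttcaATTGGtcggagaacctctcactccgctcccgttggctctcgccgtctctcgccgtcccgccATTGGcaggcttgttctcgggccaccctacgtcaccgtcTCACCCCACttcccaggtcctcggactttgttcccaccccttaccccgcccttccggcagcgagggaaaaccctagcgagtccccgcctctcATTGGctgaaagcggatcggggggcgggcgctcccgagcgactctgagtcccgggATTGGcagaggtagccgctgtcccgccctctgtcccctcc
Idi1: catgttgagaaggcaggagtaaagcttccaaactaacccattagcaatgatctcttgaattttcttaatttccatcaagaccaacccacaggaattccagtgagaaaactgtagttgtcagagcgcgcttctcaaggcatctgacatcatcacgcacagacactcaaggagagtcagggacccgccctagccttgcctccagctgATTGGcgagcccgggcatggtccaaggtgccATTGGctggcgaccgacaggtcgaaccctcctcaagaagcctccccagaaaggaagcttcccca
Nsdhl: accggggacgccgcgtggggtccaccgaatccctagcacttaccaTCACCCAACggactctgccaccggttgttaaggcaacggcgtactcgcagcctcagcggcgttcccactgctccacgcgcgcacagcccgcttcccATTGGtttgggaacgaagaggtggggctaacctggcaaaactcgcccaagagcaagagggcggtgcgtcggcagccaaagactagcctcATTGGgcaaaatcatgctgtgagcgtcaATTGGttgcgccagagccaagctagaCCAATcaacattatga

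Of 17 genes of sterol uptake, transport and efflux, 1 was called higher and 1 lower. The higher one was Nr1h3, the oxysterol receptor LXR alpha, which read 749 and 867 in the null and 419 and 339 in the transgenic arrays (1.10 ± 0.22, adjusted p = 0.00706). Its WT arrays, between 593 and 1034, overlapped the null range. The lower one was Lpl, lipoprotein lipase, which read 3535 and 2183 against 5493 and 4341 (-0.81 ± 0.24, adjusted p = 0.05 after rounding). Fatty acid and myelin lipid synthesis had 2 lower and 0 higher calls among 21 genes, with a median of -0.08 in null array 1 and -0.59 in null array 2. Thrsp, which promotes lipid synthesis from glucose, read 586 and 162 against 1381 and 1407, with WT between 615 and 1369.8 (-2.18 ± 0.42, adjusted p = 0.00584). Lpin1, a phosphatidate phosphatase, read 173 and 104 against 323 and 301 (-1.22 ± 0.25, adjusted p = 0.00932), with WT close to null array 1.

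Among 13 myelin protein genes, Pmp22 and Mal were called lower and 0 were called higher. Mal, a raft-associated proteolipid of myelin, read 1095 and 495 in the null, 1782 and 2259.9 in the transgenic and 1863 to 2089 in the WT arrays (-1.45 ± 0.29, adjusted p = 0.00823). The transgenic and WT ranges overlapped and the null arrays lay below both. The medians of the list were -0.16 in null array 1 and -0.66 in null array 2. Of 29 Schwann cell transcription regulators, 2 were called lower: Hey1, a Notch target, at 345 and 224 against 595 and 647 (-1.16 ± 0.24, adjusted p = 0.00885), and Smad7, an inhibitor of TGF-beta signalling, at 188 and 112 against 349.6 and 377 (-1.32 ± 0.34, adjusted p = 0.0278). Pou3f1, the factor of promyelinating Schwann cells, read 1121 and 548 in the null, 1263 and 2153 in the transgenic and 21.8 to 129 in the WT arrays. It was thus far above WT in both mutants, and its difference of -1.07 ± 0.46 did not pass (adjusted p = 0.171). Sox2 and Id2, markers of immature Schwann cells, showed the same order: Sox2 read 1681 to 2305 and Id2 1031 to 1749 over the 4 mutant arrays, against 578 to 785 and 239 to 278 in WT, and neither passed between null and transgenic (adjusted p = 0.972 and 0.0586). The list of immature, non-myelinating and injured Schwann cells holds Sox2 but not Pou3f1 or Id2. Its members Cdh2 and Nes lay below WT in both mutants, at 134 to 239 against 325 to 467 and 1348 to 2356 against 2434 to 3691. The median of that list was -0.16 for WT minus transgenic. Of 26 genes of immature, non-myelinating and injured Schwann cells, Erbb3 alone was called.

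Mitochondrial respiration had the most negative median of the 25 lists, at -0.51, with -0.34 in null array 1 and -0.87 in null array 2. Of its 49 tested genes, 15 were called lower and 2 higher, and both null arrays lay below both transgenic arrays for 30, against 29.8% of all genes. Ndufv1, a catalytic subunit of complex I, read 831 and 623 in the null and 2115 and 1681 in the transgenic arrays, with WT between 1395 and 1565 (-1.39 ± 0.26, adjusted p = 0.00473). Ndufs1, another core subunit of complex I, read 328 and 240.3 against 805 and 765 (-1.48 ± 0.28, adjusted p = 0.00509). Atp5a1, the alpha subunit of ATP synthase, read 2966 and 2165 against 4421 and 4923, with WT between 3502 and 4547 (-0.88 ± 0.16, adjusted p = 0.00509). The null arrays lay below all WT arrays for all 3 genes. The remaining lower members cover complexes I to V and the tricarboxylic acid cycle, among them Sdhb, Uqcrc1, Cycs, Atp5o, Idh2 and Idh3a. Ndufa5 and Ndufa1, accessory subunits of complex I, were the higher ones, at 0.86 ± 0.23 and 0.51 ± 0.14. Without null array 2 the list had 0 calls in either direction, and without null array 1 it had 22 lower and 2 higher.

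Of 45 chaperone, proteasome and lysosome genes, 10 were called lower and 2 higher. Hspa8, the constitutive cytosolic HSP70, read 2008 and 889.7 in the null and 2729.8 and 3584 in the transgenic arrays (-1.23 ± 0.25, adjusted p = 0.00815). Hspd1, the mitochondrial chaperonin, read 1211 and 792 against 1868 and 2454 (-1.13 ± 0.21, adjusted p = 0.00499). The higher members were Sqstm1, given above, and the proteasome subunit Psmb1 (0.58 ± 0.15, adjusted p = 0.0256). In the endoplasmic reticulum stress list, 4 of 25 were called lower and 1 higher, Dnajc3 on probe set 102415_r_at (0.87 ± 0.25, adjusted p = 0.05 after rounding). Pdia3 and Pdia4, disulfide isomerases, read 375 and 427 against 1029.6 and 748, and 80.7 and 3.99 against 359 and 340.2 (-1.13 ± 0.27 and -2.40 ± 0.51, adjusted p = 0.0203 and 0.0105). Herpud1, a component of the degradation machinery of the endoplasmic reticulum, was lower by -1.14 ± 0.28 (adjusted p = 0.0207). Ribosomal protein genes had 4 lower and 0 higher calls among 23, with Rpl8 at -0.72 ± 0.15, Rplp0 at -0.76 ± 0.18 and Rps4x at -0.92 ± 0.22 (adjusted p = 0.00835, 0.0163 and 0.0177). Without null array 2, 0 members of these 3 lists were called.

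Lists of collagens, cell cycle and immune genes had few calls. Of 51 collagen and matrix genes 2 were higher and 3 lower: Col1a2, a chain of type I collagen, read 4543 and 2063 against 6025 and 5877 (-0.96 ± 0.23, adjusted p = 0.0193), and Col11a1 80.4 and 74.3 against 218 and 194 (-1.41 ± 0.36, adjusted p = 0.0275). Null array 2 lay far below null array 1 for Col1a2, and a second Col1a2 probe set had 0.34 (adjusted p = 0.567). Of 56 cell cycle genes 1 was higher, Mki67, the proliferation marker, at 427 and 317 against 129 and 174 with WT between 49.6 and 78.8 (1.30 ± 0.37, adjusted p = 0.0457). The lower ones were Cdk4, Pcna and Lig1, which act at entry to and during DNA replication, at -1.09 ± 0.23, -1.18 ± 0.28 and -1.09 ± 0.27 (adjusted p = 0.00957, 0.0185 and 0.0253). A second Lig1 probe set, 162004_i_at, was called in the opposite direction (0.68, adjusted p = 0.0374), so the direction of Lig1 is unsettled. Other replication genes did not pass, among them Mcm3 at 0.40, Pola1 at 0.35 and Mcm7 at -0.58, and the calls lie near the share of all genes given above. Of 38 genes of antigen presentation and interferon response, 2 were lower, at -1.0 (Tap2) and -1.25 (Gbp2) without null array 2. Both null values of Tap2 lay below the floor, so leaving out either could not change its difference. Tap2, a peptide transporter of antigen presentation, read 53.1 and 48.1 against 118 and 101, with WT between 83.7 and 89.6 (at least -1.0 ± 0.09 in size, adjusted p = 1.07e-05). Gbp2, an interferon-induced GTPase, read 60.7 and 10.8 against 131 and 161 (-1.33 ± 0.20, adjusted p = 0.00141).

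Markers of other cell types that dissected nerve can hold were mostly not called. Of 38 macrophage genes 2 were higher, the chemokines Ccl2 and Ccl9, and the summed index was 21439.9 and 18689.9 in the null and 21632 and 14018 in the transgenic arrays. Cd68, a macrophage marker, read 153 and 148 against 182 and 147. Endothelium, T and B lymphocyte, erythroid and skeletal muscle lists had 0 calls, by limma, among 25, 20, 23 and 40 genes, of which 9, 3, 1 and 8 had an unadjusted p under 0.05. The muscle sum, which was not tested, was 13746 and 16825 in the null, 28329 and 18170.3 in the transgenic and 34763 to 48562 in the WT arrays. Acta1, skeletal actin, read 90 in null array 1 and 1146 in null array 2, against 2957 and 1556 (adjusted p = 0.0947). Its part in the other results was not tested. Of 11 mast cell genes 2 were lower, Kit and Hdc, the histamine-forming enzyme (at least -0.41 ± 0.11 in size, adjusted p = 0.0359), while the protease gene Cma1 read 2645 and 2817 against 2859.9 and 2855 on its brightest probe set. Adipocyte genes gave 1 higher and 2 lower calls among 21. Angptl4, a lipase inhibitor, read 2163 and 2487 against 914 and 586 (1.66 ± 0.32, adjusted p = 0.00549), and Fabp4, a fatty acid carrier of fat cells, 883 and 698 against 1424 and 1399 (-0.85 ± 0.23, adjusted p = 0.0374). The adipocyte sum was 16679 and 12718 in the null and 21470.3 and 19356 in the transgenic arrays, and its part in the lower Lpl and Thrsp was not tested.

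Fibroblast, smooth muscle, neuron and immediate early lists gave 1 higher and 1 lower of 29, 0 and 1 of 18, 1 and 2 of 25, and 0 and 1 of 26. Thy1, a surface glycoprotein of fibroblasts and neurons, read 892 and 662 in the null and 191 and 148 in the transgenic arrays, with WT between 457 and 803 (2.20 ± 0.55, adjusted p = 0.024). The transgenic arrays stood apart there. Thy1 was not called when any 1 of the 4 arrays was left out, with differences between 1.98 and 2.41. It did not pass with scan day as a random block either (1.88, adjusted p = 0.178, limma). Gsn, the actin-severing gelsolin, read 1166 and 169.8 against 3144 and 1348 (-2.21 ± 0.61, adjusted p = 0.0391), and its null arrays differed more from each other than null array 1 did from transgenic array 2. Myh11, the smooth muscle myosin, read 66 and 64.3 against 129 and 131 (-1.0 ± 0.21, adjusted p = 0.0109). Sncb, beta-synuclein, read 132 and -7.98 against 391 and 232 (-1.83 ± 0.44, adjusted p = 0.0203), and Gadd45g, a stress-induced growth regulator, 55.3 and 55.6 against 86.2 and 82.3 (-0.60 ± 0.16, adjusted p = 0.0314).

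**Figure D4:**
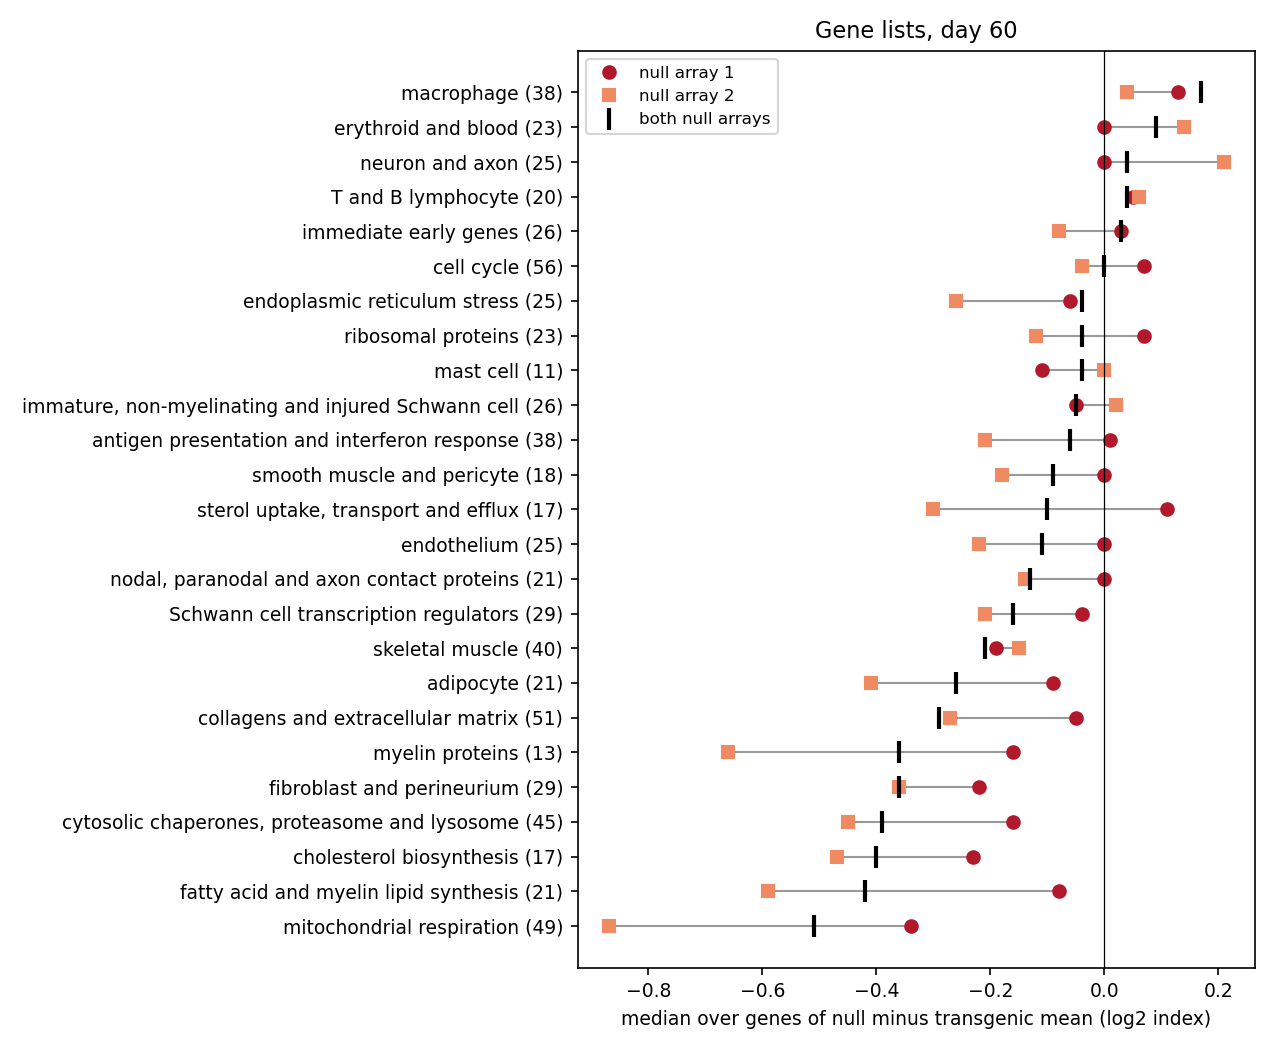
Median over the genes of each list of null minus transgenic mean (x axis, log2 index) at P60, for null array 1 (circles), null array 2 (squares) and the fitted difference over both (bars), which is a median of its own and need not lie between them. The number of tested genes is in parentheses. Null array 2 lies to the left of null array 1 for the mitochondrial, fatty acid, myelin, cholesterol and chaperone lists.

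At P4 the same contrast had 46 calls (0.418% of those tested), 29 higher and 17 lower in the null, with 3 arrays a group. The test of the P60 difference against the P4 difference called 915 probe sets (8.32%), of which 194 were more positive and 721 more negative at P60. At P4, arrays 1 and 2 of both genotypes were scanned on the same day, and array 3 of each on other days. At P60 the genotypes were scanned on different days, so the age test cannot tell age from scan day. Of the 734 probe sets called at P60, 515 were called in that age test. Without null array 2 the age test called 128. At both ages 18 probe sets were called, 10 with the same sign.

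A pair of sterol genes, Hmgcs1 and Idi1, were called at both ages with opposite signs. Hmgcs1 was higher in the null at P4, with a mean index of 2518 ± 491 (SD, n = 3) against 1123 ± 627 in the transgenic arrays (1.28 ± 0.25, adjusted p = 0.0331, limma), and lower at P60, as given above. The change between the ages was -2.60 ± 0.40 (adjusted p = 0.00178, limma). Idi1 stood at 2094 ± 270 (SD, n = 3) against 938 ± 272 at P4 (1.19 ± 0.18, adjusted p = 0.00432, limma), and its change was -2.09 ± 0.28 (adjusted p = 0.000692, limma). Both changes passed without null array 2 (adjusted p = 0.0181 and 0.00626, limma), unlike their P60 differences. Over the 17 genes the median difference was 0.33 at P4 and -0.40 at P60, 13 of 17 were positive at P4, and the age test called 6 more negative and 0 more positive. The age test without null array 2 called 3 more negative. Fdft1, Mvd, Hsd17b7 and Mvk, with 0.30, 0.27, -0.35 and -0.08 at P4 and 0.11, 0.28, -0.19 and -0.07 at P60, kept their sign. Scd1, a desaturase that makes monounsaturated fatty acids, was also called at both ages with opposite signs on probe set 94057_g_at, at 1.22 and -1.27, and its probe set 94056_at had 0.66 and -0.47. Cct3, a chaperonin subunit, went from 1.80 ± 0.35 to at least -1.86 ± 0.43 in size on probe set 98446_s_at, where the P60 null arrays, at 43.6 and 2.56, lay below the floor. In the opposite sense, Dnajc3, a cochaperone of the endoplasmic reticulum, went from -1.27 to 1.13 on its other probe set, 102414_i_at, Pkp2, a desmosomal plaque protein, from -1.15 to 1.34, and Rfc1, a clamp loader subunit of DNA replication, from -1.50 to 1.29.

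A few probe sets were called at both ages with the same sign. AI506816 read 57.6 ± 12.2 in the null and 564 ± 86.6 in the transgenic arrays at P4 (SD, n = 3), a difference of -3.19 ± 0.25 (adjusted p = 4.08e-06, limma). The change to P60 was 0.12 (adjusted p = 0.898, limma). This change is not exact, because both P60 null values lay below the floor. Snhg6 read 52.5 ± 5.59 against 729 ± 267 at P4 (SD, n = 3), or -3.62 ± 0.35 (adjusted p = 2.1e-05, limma). The probe set annotated to Mir686 was lower at P4 too, by -1.74 ± 0.35 (adjusted p = 0.0331, limma), and more so at P60. Mapt on probe set 102431_at gave -1.57 at P4 and -2.12 at P60, and Prdx2, a peroxiredoxin, -1.77 and -1.87 on probe set 99608_at. The brighter Prdx2 probe set 100331_g_at had 0.08 at P4 (adjusted p = 0.968, limma) and -1.98 at P60, and was called in the age test (adjusted p = 0.0108, limma). Adk, adenosine kinase, had at least 1.24 at P4 and at least 0.53 at P60 on the dim probe set 97690_at. All its transgenic values lay below the floor at both ages. The other Adk probe sets were not called at P60.

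Most of the leading genes of P60 showed little at P4. The P4 difference was 0.04 for Socs3 (162206_f_at), 0.22 for Lox (160095_at), 0.15 for Osmr, -0.03 for Fbp1 and 0.00 for Syt4 and Slc22a2, which lay below the floor on all 6 P4 arrays, and the age test called all 6 genes. Without null array 2 the age test did not call Lox, with a change of 2.34, or Osmr, with 1.61. For some, the P4 difference had the opposite sign without passing: it was -0.90 for Apobec1, 0.75 for Gsdme, 0.79 for Nr1d2, 1.47 for Stk39, 1.10 for Mal and 1.0 for Smad7. Zfp91, a ubiquitin ligase, and Iqgap2, a scaffold protein, had -1.02 and -1.10 at P4, which did not pass (adjusted p = 0.263 and 0.218, limma). At P60 they had 1.97 ± 0.42 and 1.74 ± 0.41 (adjusted p = 0.0103 and 0.0186, limma). Zfp91 read 616 and 1504 in the P60 null and 203 and 295 in the P60 transgenic arrays, and Iqgap2 172 and 296 against 66.6 and 68.6. Without null array 2 their P60 differences were 1.33 and 1.35, and neither passed. Among the mitochondrial genes the median difference was -0.08 at P4 and -0.51 at P60, with 10 of 49 called more negative and 1 more positive in the age test, and 3 and 0 without null array 2.

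**Figure D5:**
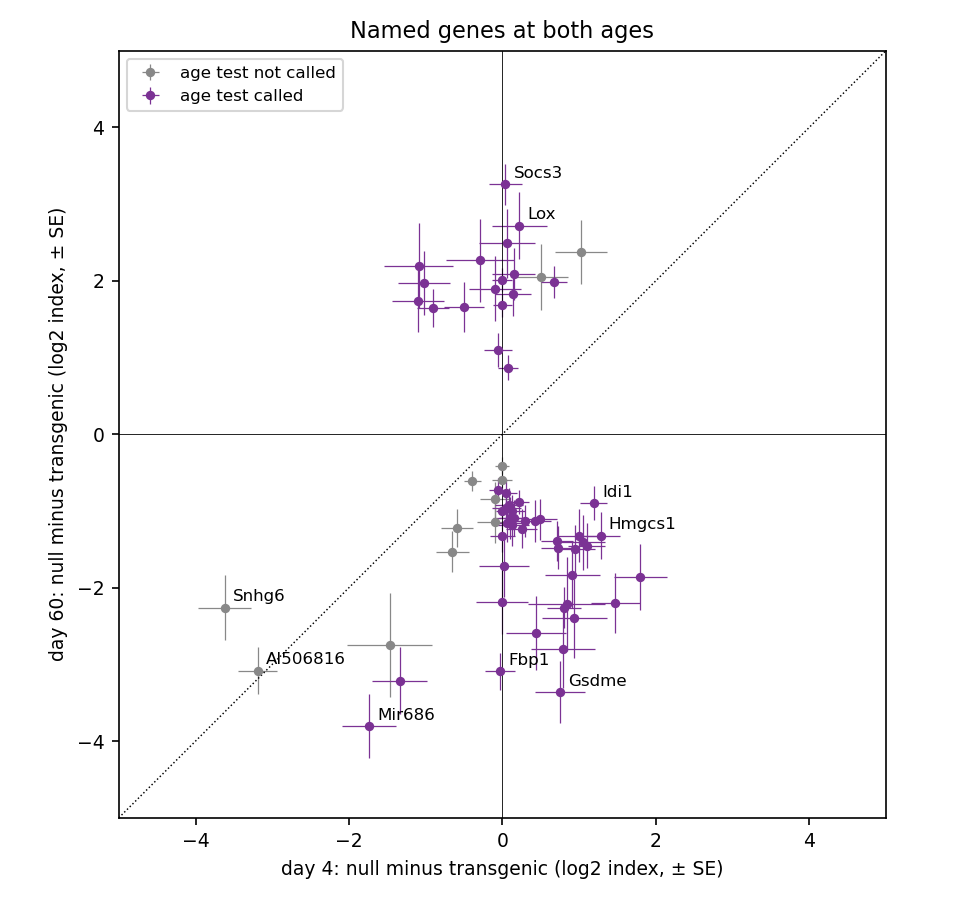
Null minus transgenic difference at P4 (x axis) against P60 (y axis), log2 index ± SE from the limma fit, for the named probe sets called at P60. Purple points were called in the age test. Hmgcs1 and Idi1 lie in the lower right, with opposite signs at both ages, and Snhg6 and AI506816 lie far left and low, with the same sign.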

How the data were processed

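The deposited intensity is dChip's model-based expression index, which the authors computed after smoothing spline normalization, per the labels. It is linear and can be negative. Probe sensitivities were estimated from 27 arrays for every array but the first P60 WT array, per the labels. RNA went through 2 rounds of in vitro transcription before scanning with MAS 5.0, per the labels. The dChip version is not given in the sources used here. Scan days were read from the experiment files, per the file headers.

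The labels put the 21 arrays into 8 groups. Anything under 54.7, the 20th percentile, was set to it (the floor), and log2 values were used unscaled, so differences of dim probe sets are understated. A probe set was tested if 2 or more arrays exceeded the floor: 10994 were tested and 1428 were not. In R 4.3.3, limma 3.58.1 estimated the 8 group means from every array, which left 13 residual degrees of freedom, and moderated variances along an intensity trend. Calls required a Benjamini-Hochberg adjusted p below 0.05. Using every array adds information on the spread that 2 arrays a group do not give. The number of arrays limits the precision.

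Symbols are those of GEO's platform table. Of its probe sets, 10833 carried 1 symbol, 396 several and 1193 none. Through the Entrez identifier, 10817 matched RefSeq. Named probe sets are those of Pmp22, the 8 highest and 8 lowest differences and the 8 widest gaps each way among called probe sets with 1 symbol, the 3 smallest adjusted p of each list, and the 4 highest and 4 lowest of the age test. Lists use the brightest probe set of each gene, and 681 of their 905 genes were tested. The comparison, members and lists were chosen with earlier results of these data known.

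Alternatives covered the floor, the filter, scaling, the arrays in the fit, each array left out, the replicate number as a block, scan day as a random block, array weights and the variance trend.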

Additional observations from a re-analysis of the deposited data

Results flagged for a closer look

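Of 69 named probe sets, 55 had a difference between null and transgenic nerve that itself differed between P60 and P4 in limma's test of that change, with adjusted p from 0.000146 to 0.0499. All 55 were also called at P60, 17 changed towards higher and 38 towards lower values in the null, and 22 passed the age test without null array 2. The values that follow are the P60 difference minus the P4 difference, in log2 units. Because the genotypes were scanned on different days at P60, age and scan day cannot be told apart in these values. For Slc22a2, Slc39a8 and Tap2 a whole group lay at or below the floor at both ages, so their values are neither exact nor limits. For Syt4, Thrsp and Gbp2 both groups lay below the floor at P4, as did the null group of Nr1h3, so these changes are not exact either.

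The change was 3.28 for Thy1, 3.22 for Socs3, 3.0 for Zfp91, 2.84 for Iqgap2 and 2.56 for Ccl9. It was 2.55 for Apobec1, 2.49 and 2.43 for the Lox probe sets, 2.17 for Angptl4, 2.01 for Syt4 and 2.00 for Ccl2. Smaller positive changes were 1.94 for Osmr, 1.70 for Serpind1, 1.68 for Slc22a2, 1.32 for Slc39a8, 1.15 for Nr1h3 and 0.79 for Sqstm1.

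The negative changes were led by Gsdme at -4.10, Stk39 at -3.67, Cct3 at -3.66 (a lower limit of its size), Nr1d2 at -3.58 and Pdia4 at -3.34. Fbp1 changed by -3.06, 6330403K07Rik and Gsn by -3.05 each, Mtch2 by -3.03 and Sncb by -2.74. Among lipid and myelin genes the change was -2.60 for Hmgcs1, -2.55 for Mal, -2.43 for Nsdhl, -2.18 for Thrsp and -2.09 for Idi1. Among genes of respiration it was -2.21 for Ndufs1, -2.10 for Ndufv1 and -1.10 for Atp5a1. Regulators and receptors changed by -2.32 (Smad7), -1.74 (Kit), -1.60 (Erbb3) and -1.22 (Hey1). The probe set annotated to Mir686 changed by -2.06 and Mapt on probe set 102742_g_at by -1.87.

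Chaperones and isomerases changed by -1.56 (Pdia3), -1.47 (Hspa8) and -1.42 (Hspd1). Replication genes changed by -1.30 (Pcna), -1.25 (Cdk4) and -1.19 (Lig1), and ribosomal protein genes by -1.01 (Rps4x), -0.81 (Rplp0) and -0.67 (Rpl8). The remaining changes were -2.45 for Col11a1, -1.33 for Gbp2, -1.13 for Myh11, -1.01 for Col1a2 and -1.0 for Tap2.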

How the results depend on the processing

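The main counts at P60 were 192 higher and 542 lower. Quantile and median scaling gave 336 and 350 higher calls, and array weights 95 higher and 356 lower. Fitting only the P60 arrays gave 19 and 31, and only the 4 compared arrays 0 and 0 by limma, with 1559 at an unadjusted p under 0.05. Scan day as a random block (correlation 0.3958) gave 34 and 86. Leaving out each array in turn gave 41 to 480 higher and 46 to 1188 lower calls, and for the age test 128 to 1824 against 915 (190 with the scan-day block). The cause of these shifts was not tested. Other alternatives stayed within 1.5 times these counts. The replicate block gave 216 higher, 673 lower and 1097 age calls. The numbers do not pair the samples by the labels, deviations of same-numbered arrays correlated at 0.18 over 2 pairs, and all 67 named calls passed with the block. Of these 67, 62 to 66 passed under the other floors, no filter, both scalings or no variance trend, 58 with array weights, 26 with the scan-day block, 15 with only the P60 arrays, and 63, 16, 40 and 30 without null array 1, null array 2, transgenic array 1 and transgenic array 2. None changed sign. Pmp22 did not pass with the scan-day block (adjusted p = 0.0807). A single remaining array of a group is assumed to vary like the other groups. Differences near the floor are limited by signal over background.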

Other observations

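The genes here were chosen after their values were seen, outside the rule for named genes. Some genes that oscillate with the circadian clock had lower values in null than in transgenic nerve, beside Nr1d2, and others did not. Bhlhe40, a clock repressor, read 197 and 155 in the null, 934 and 608 in the transgenic and 459 to 574 in the WT arrays (-2.11 ± 0.22, adjusted p = 4.2e-05, limma). Per2 read 16.6 and -1.89 against 190.2 and 75.8 (at least -1.13 ± 0.25 in size, adjusted p = 0.0116, limma), and Klf9 50.7 and 34.3 against 197 and 142 on probe set 93527_at (at least -1.61 ± 0.15 in size, adjusted p = 1.15e-05, limma). The WT arrays read 67.1, 53.7 and 2.85 for Per2 and 62.1, 47 and 58.6 for Klf9, where the transgenic arrays were the high ones. Bhlhe40 and Klf9 were called with any 1 of the 4 arrays left out, and Per2 with 3 of the 4. For Klf9 and Per2 both null values lay below the floor, so leaving out a null array could not change the difference. The much brighter Klf9 probe set 93528_s_at read 1924 and 2117 against 2261 and 2777, and did not pass (-0.31 ± 0.29, adjusted p = 0.577, limma). Dbp, Per1 and Tef had differences of -2.48, -1.49 and -0.88 that did not pass (adjusted p = 0.078, 0.0539 and 0.123, limma), and Per3 and Nr1d1 had 0.10 and -0.49. Clock and Arntl, the activators of the clock, had 0.40 and 0.53 (adjusted p = 0.469 and 0.594, limma). Among the WT arrays Dbp read 1233, 1298 and 169, so that 1 WT pool was as low as the null arrays. The hour at which nerves were taken is not given in the sources used here.

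Il6st, the signalling subunit that Osmr shares with other receptors of its family, read 2727 and 2697 in the null and 1693 and 1594 in the transgenic arrays on probe set 94345_at (0.72 ± 0.21, adjusted p = 0.0437, limma), with WT between 2299 and 2488. It was not called when any 1 of the 4 arrays was left out. Its second probe set had -0.39, Stat3 had 0.07 and 0.24, and Il6 had 0.22, and none of these passed. Tnc, the matrix protein tenascin C, read 937 and 1386 against 240.2 and 337 on probe set 162362_f_at and narrowly missed the threshold (2.00 ± 0.60, adjusted p = 0.0544, limma), and its second probe set, 101993_at, had 0.69 (adjusted p = 0.491, limma).

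Pdhb, a subunit of pyruvate dehydrogenase, read 539 and 273 against 1716 and 1461 (-2.05 ± 0.26, adjusted p = 0.000307, limma). Kcnk1, a potassium channel, read 627 and 309 in the null, 1623 and 1473 in the transgenic and 1390.3 to 1445 in the WT arrays (-1.81 ± 0.26, adjusted p = 0.000939, limma). Both were called with any 1 of the 4 arrays left out.

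Of 21 tested genes of the node, the paranode and the contact of Schwann cell and axon, 0 were called in either direction by limma and 7 had an unadjusted p under 0.05, with a median difference of -0.13.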
